A study of Mus musculus with 47 samples.

Results

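Begain, Pacsin1, Unc13c, Duxbl1 and Igf2bp2 are 5 genes, of 20456 in the count table, that were lower in the liver of both Daxx mutants in some fits of the data. Begain, Pacsin1 and Unc13c met the stringent criteria in both livers with DESeq2, and Duxbl1 and Igf2bp2 passed an adjusted p below 0.05 alone in both livers with edgeR. The genes were thus selected on their liver fold changes and adjusted p values, so the liver values are given as a description, while lung and brain, which the choice did not use, were tested. The WT livers took part in the choice, so WT liver against another tissue is a description too. RNA was sequenced from liver, lung and brain of 17 C57BL/6 embryos at E18.5 in 47 libraries of 12 groups. The groups were Daxx S226A homozygotes and the WT embryos of their 4 litters, and Daxx Y130A homozygotes and the WT embryos of 4 other litters, with 4 libraries in each tissue and genotype except the WT lung of Y130A litters, which had 3. Both alleles are CRISPR/Cas9 knock-ins that also carry silent changes. They were made in C57BL/6N zygotes, backcrossed to C57BL/6J, and bred by crossing heterozygotes, so each mutant has WT littermates. Y130A was made to disrupt the binding of Daxx to Atrx, and S226A that of Daxx to histone H3.3. A library of the S226A litters held 15722147 to 26190403 counts and one of the Y130A litters 36351738 to 54885020, so the low genes rest on fewer reads in the S226A litters. The samples are pieces of whole tissue, in which fewer cells of a type and less RNA per cell cannot be told apart.

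Daxx is a chaperone that, with Atrx, places histone H3.3 into heterochromatin and repeats. The 5 genes have no shared function in textbooks. Begain encodes a protein of the postsynaptic density that binds the guanylate kinase domain of PSD-95, Pacsin1 a neuronal F-BAR protein that bends membranes and works with dynamin in endocytosis of synaptic vesicles, and Unc13c a member of the Munc13 family that primes vesicles for release and is best known from cerebellar granule cells. Duxbl1 is one of the double homeobox genes, relatives of Dux, and Igf2bp2 encodes an RNA-binding protein of the fetal IGF2 mRNA-binding family, which is abundant in the embryo and regulates the stability and translation of its target mRNAs.

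The genes lie on 5 chromosomes. In GRCm38 with GENCODE M21, Begain is at chr12:109032187-109068217 on the minus strand, Pacsin1 at chr17:27655509-27711482 on the plus strand, Unc13c at chr9:73479422-73968966 on the minus strand, Duxbl1 at chr14:25978577-25990088 on the plus strand and Igf2bp2 at chr16:22059009-22163299 on the minus strand. Pacsin1 is on the chromosome of Daxx, 6.20 Mb from it. No exon of a member overlaps an exon of another annotated gene. Duxbl1 is the one with close copies: 93.5% of the 50-base stretches of its transcripts (4502 of 4814) occur also in Duxbl2 or Duxbl3, against 0 for each of the other members, so its counts rest on few unique stretches and are uncertain. Duxbl2 and Duxbl3 were not analysed here.

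The promoters show whether genes that were lower together look alike upstream. RefSeq starts on GRCm38.p6 were matched for 4 of the 5 members, with no entry for Duxbl1, and the 250 bases before a start are printed with each CG pair in capitals. For Begain, which has 5 starts, the window that ends at the annotated gene start is shown, chr12:109068218-109068467 on the minus strand. The Pacsin1 window, chr17:27684989-27685238 on the plus strand, lies inside the longest gene model, the Unc13c window is chr9:73969038-73969287 on the minus strand, and the Igf2bp2 window is chr16:22163300-22163549 on the minus strand.
Begain: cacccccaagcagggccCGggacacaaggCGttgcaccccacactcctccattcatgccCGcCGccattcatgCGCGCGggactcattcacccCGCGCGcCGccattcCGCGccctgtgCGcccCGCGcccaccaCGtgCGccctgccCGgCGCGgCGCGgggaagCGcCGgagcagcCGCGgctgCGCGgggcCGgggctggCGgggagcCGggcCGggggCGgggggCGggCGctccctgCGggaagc
Pacsin1: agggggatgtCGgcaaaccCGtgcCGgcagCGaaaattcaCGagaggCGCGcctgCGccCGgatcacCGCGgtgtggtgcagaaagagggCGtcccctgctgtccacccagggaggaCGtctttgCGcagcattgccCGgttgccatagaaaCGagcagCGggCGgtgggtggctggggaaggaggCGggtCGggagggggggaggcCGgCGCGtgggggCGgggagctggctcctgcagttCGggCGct
Unc13c: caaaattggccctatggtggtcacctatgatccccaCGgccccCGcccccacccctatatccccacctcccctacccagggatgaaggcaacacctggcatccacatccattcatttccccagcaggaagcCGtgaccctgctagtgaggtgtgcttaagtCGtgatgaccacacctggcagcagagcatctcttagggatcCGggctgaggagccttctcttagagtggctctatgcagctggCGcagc
Igf2bp2: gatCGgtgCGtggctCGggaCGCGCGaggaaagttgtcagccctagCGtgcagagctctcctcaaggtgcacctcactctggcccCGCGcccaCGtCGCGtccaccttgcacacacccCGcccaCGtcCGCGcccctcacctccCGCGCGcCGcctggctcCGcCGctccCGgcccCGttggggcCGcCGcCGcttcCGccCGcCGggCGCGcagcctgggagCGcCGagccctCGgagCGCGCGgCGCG

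The windows of Begain, Pacsin1 and Igf2bp2 are rich in CG, whereas that of Unc13c is not. They hold 37, 26 and 40 CG pairs and Unc13c holds 6, which is also the median of the 32536 windows in the table. The motif GGGCGG, which contains a CG and was searched on both strands, is present in all 4 windows and in 33.0% of all windows. CCAAT, on either strand, is in the Unc13c window alone among the 4 and in 33.8% of all windows, and TATAAA is in none of the 4 and in 12.3% of all. GGGGG, on either strand, is in the windows of Begain, Pacsin1 and Unc13c and in 47.4% of all, and CACGTG in that of Begain alone and in 6.04% of all. Of these 5 motifs GGGCGG alone is in all 4 windows.

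Levels in liver are given in CPM, the read count relative to the size of the library, scaled by the TMM method of edgeR so that libraries can be compared. Begain was measured at 0.433, 0.462, 0.0663 and 0.527 CPM in the S226A livers of litters 2875, 2881, 2970 and 2972, which are 7, 10, 1 and 8 reads. In their WT littermates it was at 0.719, 1.64, 0.981 and 1.90 CPM, from 10, 25, 16 and 31 reads. All 4 S226A livers lay below all 4 WT livers, as for 5.18% of the genes tested. In the Y130A livers of litters 2848, 2851, 2974 and 3069 it was at 0.738, 0.609, 1.17 and 0.684 CPM, and in their WT littermates at 1.58, 1.09, 2.26 and 1.56 CPM. Each Y130A liver was below its own littermate, but the Y130A liver of litter 2974 was above the WT liver of litter 2851, so the groups overlapped. The log2 fold change was -1.79 (SE 0.35) in S226A and -1.01 (SE 0.25) in Y130A liver, or 3.52-fold and 2.03-fold lower by the group means.

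Pacsin1 had 0, 6, 0 and 0 reads in the S226A livers in the same litter order and 13, 9, 3 and 5 reads in their WT littermates, the latter at 0.934, 0.591, 0.184 and 0.307 CPM. The single S226A liver with reads, from litter 2881, was at 0.277 CPM, above the WT liver of litter 2970. In the Y130A livers it was at 0.295, 0.0676, 0.177 and 0.130 CPM against 1.06, 0.478, 0.416 and 0.696 CPM in the WT littermates. Here all 4 mutant livers lay below all 4 WT livers, as for 1.19% of the genes tested. The log2 fold change was -2.44 (SE 0.74) in S226A and -1.93 (SE 0.47) in Y130A liver. Without the S226A liver of litter 2881 no S226A liver has a read, and the fitted value of -7.01 (SE 1.52) then depends on the prior count. A library at 0 reads is compatible with up to 3 counts, which is 0.18 CPM in the S226A livers and 0.0985 CPM in the Y130A livers, and this covers counting error only.

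Unc13c had 0, 7, 0 and 3 reads in the S226A livers, or 0, 0.323, 0 and 0.198 CPM. The WT littermates had 7, 24, 14 and 29 reads, or 0.503, 1.58, 0.858 and 1.78 CPM. The S226A livers lay below every WT liver of their litters. The Y130A livers were at 0.207, 0.541, 0.673 and 0.619 CPM and their WT littermates at 0.515, 1.43, 1.63 and 1.91 CPM. Each pair differed in the same direction, by ratios from 0.324 to 0.413, although the low pair of litter 2848 made the groups overlap. The log2 fold change was -3.00 (SE 0.61) in S226A and -1.43 (SE 0.37) in Y130A liver, and -4.13 (SE 0.80) in S226A liver without the mutant of litter 2881.

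Duxbl1 had no read in any of the 8 mutant livers. The WT livers of the S226A litters had 7, 8, 0 and 0 reads and those of the Y130A litters 14, 4, 6 and 10. Thus 2 of the 4 WT livers of the S226A litters, those of litters 2970 and 2972, were also at 0, and the contrast there rests on litters 2875 and 2881. A mutant mean at the floor of 3 counts per library would lie 1.43-fold below the WT mean in S226A and 2.76-fold below it in Y130A liver. These folds take the WT mean as exact, though it was 0.257 ± 0.297 CPM in the S226A litters and 0.272 ± 0.142 CPM in the Y130A litters (SD, n = 4). They are therefore no lower bounds. The fitted log2 fold changes of -6.05 (SE 1.58) and -6.15 (SE 1.28) depend on the prior count and are no measure of size.

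Igf2bp2 had by far the most reads of the 5 in liver and the smallest change. It was at 20.4, 24.8, 25.8 and 22.5 CPM in the S226A livers and at 32.1, 33.8, 34.4 and 28.6 CPM in their WT littermates. It was at 27.9, 29.9, 27.8 and 33.4 CPM in the Y130A livers and at 41.8, 33.5, 42.7 and 46.3 CPM in theirs. No mutant liver reached a WT liver of its own litters in either set, though the Y130A liver of litter 3069 at 33.4 CPM and the WT liver of litter 2851 at 33.5 CPM nearly met. The log2 fold change was -0.46 in both, with an SE of 0.10 in each, and both mutant means were 1.38-fold below the WT means (23.4 ± 2.44 against 32.2 ± 2.604 CPM in the S226A litters and 29.7 ± 2.62 against 41.0 ± 5.40 CPM in the Y130A litters, SD, n = 4).

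**Figure D1:**
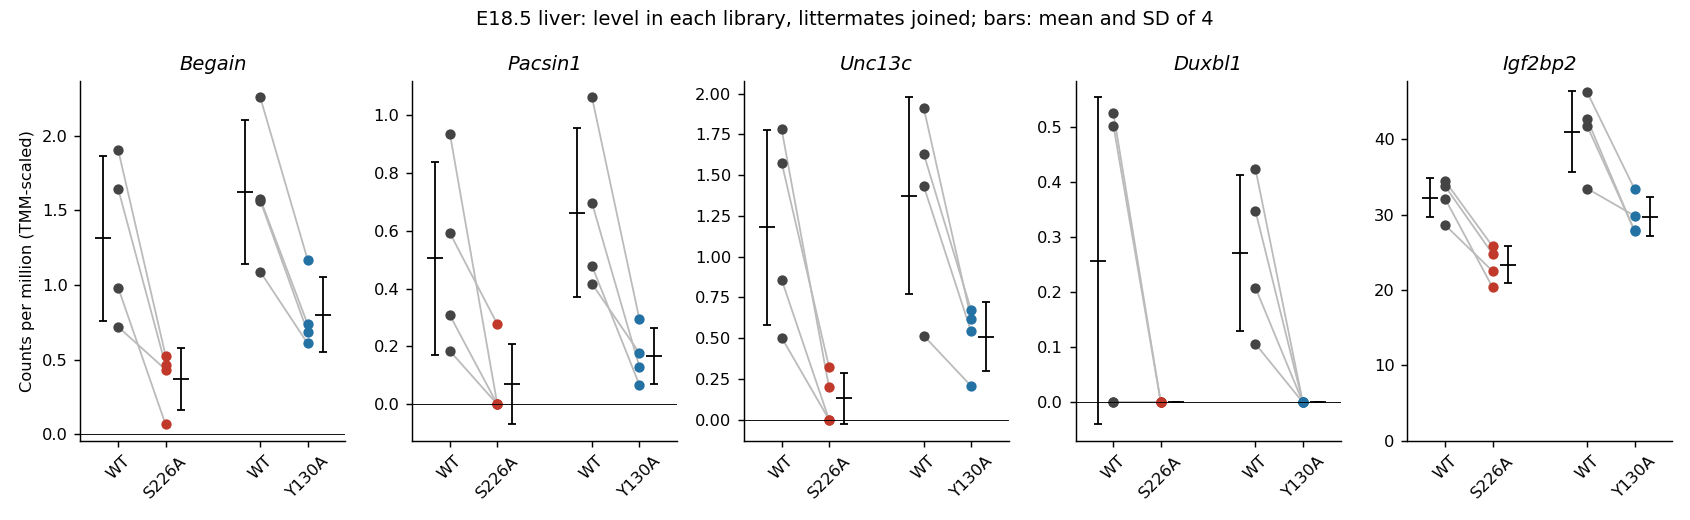
Level of each gene in each liver library, in TMM-scaled CPM on linear axes that differ between panels, with grey lines joining littermates and black bars for the mean and SD of 4 libraries. Every line falls or stays at 0, and the 4 S226A and 4 Y130A livers of Duxbl1 all sit at 0.

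How firmly each gene was called lower in liver depended on the tool. The stringent criteria were an adjusted p below 0.01, an absolute log2 fold change over 1 and an SE below 1. With edgeR they called Begain and Unc13c in S226A liver, where 0.847% of the 16892 genes tested were called lower, and no member in Y130A liver, where 0.0% were. With DESeq2 they called Begain, Pacsin1 and Unc13c in both livers, and these were the only genes of the table so called, 0.0178% of those tested. Begain was the closest to the limit, with a log2 fold change of -1.003 in Y130A liver in that fit. With edgeR and the litter as a block, Pacsin1 alone was called in both livers (0.00592%). By an adjusted p below 0.05 alone, edgeR called 3 genes lower in both livers (0.0178%), Duxbl1, Igf2bp2 and Pcdhb22, a protocadherin gene just inside that limit that is not among the 5. At that limit DESeq2 called 20 genes (0.118%), the 5 members and 15 others, and edgeR with the litter as a block called 9 (0.0533%), the 5 members, Pcdhb22, Dnah2, Tsc22d2 and Zfp992. The members are thus not the only genes so placed. With only the libraries of 1 comparison in the fit, edgeR called no member by the stringent criteria in either liver. Begain was then at -1.78 (SE 0.67) in S226A liver, Pacsin1, Unc13c and Duxbl1 did not pass the filter there, and Samd11 was the single gene at an adjusted p below 0.05 in both livers (0.00735%). In both livers Duxbl1 had an SE above the stringent limit and Igf2bp2 a fold change below it.

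Begain, Pacsin1, Unc13c and Igf2bp2 were lower in the mutant in 8 of 8 litters, as were 207 genes (1.23% of those tested), and Duxbl1 in 6 of 8 with a tie at 0 in the other two. Igf2bp2 was the only member whose mutant livers lay below all WT livers in both sets of litters, as did 25 genes (0.148%). Since the liver contrasts chose the members, nothing is read from these counts. Across the 8 litters the median ratio of mutant to WT liver was 0.453 for Begain, 0.164 for Pacsin1, 0.264 for Unc13c and 0.728 for Igf2bp2. The ratios of Begain ranged from 0.0677 in litter 2970, a single read, to 0.603 in litter 2875, both S226A litters, and from 0.437 to 0.559 in the Y130A litters.

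In lung the same genes were measured with similar or greater numbers of reads, and none was called lower. Begain was at 1.86, 2.42, 1.94 and 1.94 CPM in the S226A lungs and at 2.20, 1.12, 2.68 and 1.64 CPM in their WT littermates. It was at 2.62, 2.55, 1.96 and 3.04 CPM in the Y130A lungs and at 3.69, 2.57 and 2.74 CPM in the 3 WT lungs, where litter 3069 has no WT library. The groups overlapped in both sets, and the log2 fold changes were 0.11 (SE 0.24, adjusted p = 0.901) and -0.24 (SE 0.22, adjusted p = 1) by edgeR's quasi-likelihood test. Begain was lower in the mutant in 2 of 4 S226A litters and in 3 of 3 Y130A litters, the latter by ratios of 0.711 to 0.993. Pacsin1 lay between 0.210 and 0.909 CPM in the 15 lungs, with ratios of mutant to WT littermate from 0.434 to 1.78 in 7 litters. The 95% interval of its log2 fold change was -0.61 to 1.18 in S226A and -0.76 to 0.76 in Y130A lung, too wide to show that nothing changed. Unc13c lay between 0.764 and 2.45 CPM, with ratios from 0.699 to 3.11 and 95% intervals of -0.45 to 0.89 in S226A and -0.57 to 0.60 in Y130A lung.

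Duxbl1 was detected in all 8 mutant lungs, from 8 to 36 reads, although it was at 0 in all 8 mutant livers. It was at 0.605, 0.419, 0.331 and 0.577 CPM in the S226A lungs against 0.150, 0.449, 0.1096 and 0.703 CPM in their WT littermates, and at 0.401, 0.826, 0.816 and 0.599 CPM in the Y130A lungs against 0.767, 0.224 and 0.242 CPM. Its log2 fold changes of 0.43 (SE 0.71) and 0.68 (SE 0.71) were above 0 in both mutants, but each was smaller than its SE, and the adjusted p values were 0.850 and 1 by edgeR.

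Igf2bp2 had its highest levels in lung, and it gave the lowest p value of any member among the tests of mutant against WT in lung and brain. The S226A lungs were at 60.7, 55.1, 64.9 and 63.5 CPM and their WT littermates at 80.4, 64.6, 84.0 and 58.6 CPM. The mutant was lower in 3 of 4 litters, with ratios of 0.755, 0.853, 0.772 and 1.08, and the WT lung of litter 2972 was below 3 of the mutant lungs. The log2 fold change was -0.24 (SE 0.10, unadjusted p = 0.0243, adjusted p = 0.222 by edgeR), which did not pass. In the Y130A lungs, at 55.6, 53.6, 59.9 and 57.9 CPM, and the 3 WT lungs, at 67.6, 52.2 and 58.0 CPM, the log2 fold change was -0.06 (SE 0.11, adjusted p = 1). The difference between the S226A and the Y130A effect in lung was -0.17 (SE 0.15, 95% interval -0.46 to 0.12, adjusted p = 0.769), so no difference between the alleles was shown.

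In brain, where Begain, Pacsin1 and Unc13c are most abundant, no difference between mutants and WT littermates passed the test. Begain was at 30.3 ± 3.35 CPM in S226A and 31.9 ± 0.584 CPM in WT brain, and at 34.7 ± 2.32 and 37.2 ± 1.48 CPM in the Y130A litters (SD, n = 4). Pacsin1 was at 31.4 ± 2.04 against 34.7 ± 3.73 CPM and at 37.5 ± 2.57 against 36.1 ± 1.55 CPM. Unc13c was at 55.4 ± 3.84 against 57.2 ± 6.86 CPM and at 51.2 ± 4.60 against 49.98 ± 3.43 CPM. The groups overlapped for each gene and allele. For Unc13c the 95% interval of the log2 fold change was -0.50 to 0.41 in S226A and -0.42 to 0.49 in Y130A brain, and for Pacsin1 -0.61 to 0.33 and -0.41 to 0.52. Each of these genes had at least 656 reads in every brain.

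Duxbl1 in brain was at 0.125 to 1.01 CPM in S226A, 0.252 to 0.582 CPM in their WT littermates, 0.561 to 0.787 CPM in Y130A and 0.339 to 0.945 CPM in theirs. The ratios between littermates ran from 0.223 to 2.22 in the S226A litters, and the 95% interval of the log2 fold change, -1.11 to 1.58, was wide at this depth. Igf2bp2 was at 19.1 ± 1.26 against 20.3 ± 1.41 CPM in the S226A litters and at 20.5 ± 1.74 against 21.1 ± 1.03 CPM in the Y130A litters. Its log2 fold changes were -0.09 (SE 0.10) and -0.04 (SE 0.10), with adjusted p = 1 in both by edgeR.

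**Figure D2:**
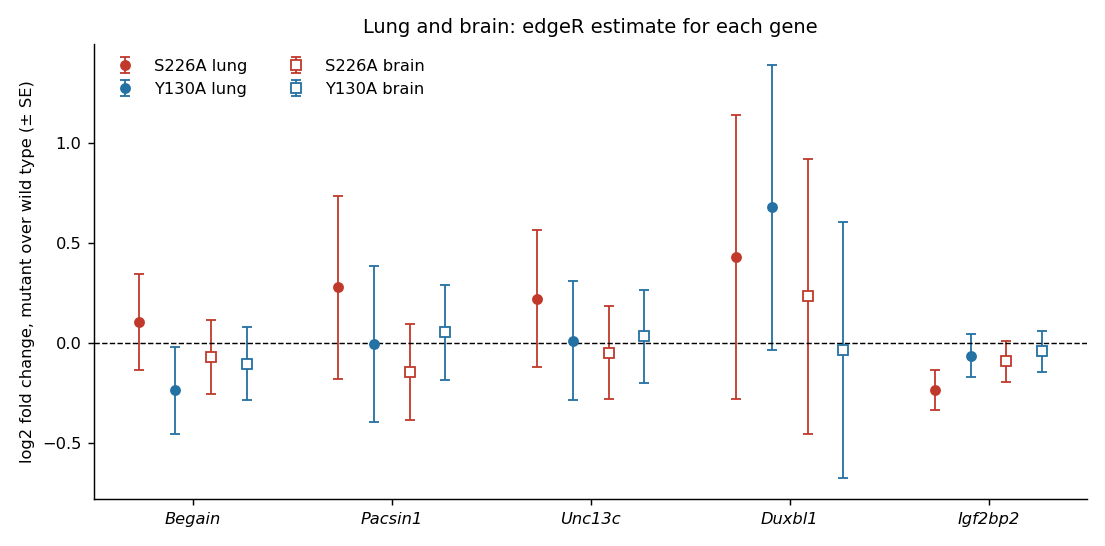
log2 fold change of mutant over WT in lung (filled circles) and brain (open squares), estimated with edgeR, with bars for the standard error. Most bars cross 0, and that of Igf2bp2 in S226A lung at -0.24 is the farthest from 0 in units of its SE.

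Across the 20 tests in lung and brain, edgeR called 0 members, DESeq2 called 0, and 1 test had an unadjusted p below 0.05 (Igf2bp2 in S226A lung). Over all genes, 16.2% had an unadjusted p below 0.05 in S226A lung, 2.92% in Y130A lung, 2.27% in S226A brain and 2.22% in Y130A brain. By the same stringent criteria 0.154% of all genes were called lower and 0.148% higher in S226A lung, and 0.0947% lower and 0.0296% higher in S226A brain, while 0.0% were called in either direction in Y130A lung and brain. Of the 20 estimates 11 were negative. The exact two-sided permutation test on log2(CPM + 0.1) gave no p below 0.143 (0.857 after Benjamini-Hochberg adjustment over the 20), where 0.0286 is the smallest value that 4 against 4 libraries allow. No member was lower in all 7 litters in lung, as 0.882% of genes were, or in all 8 in brain, as 0.639% were, and none had all mutant libraries below all WT libraries, as 1.72%, 2.55%, 1.24% and 2.09% of genes had in S226A lung, Y130A lung, S226A brain and Y130A brain. The liver was not tested against lung or brain, because the liver values chose the genes, so the estimates stand side by side.

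**Figure D3:**
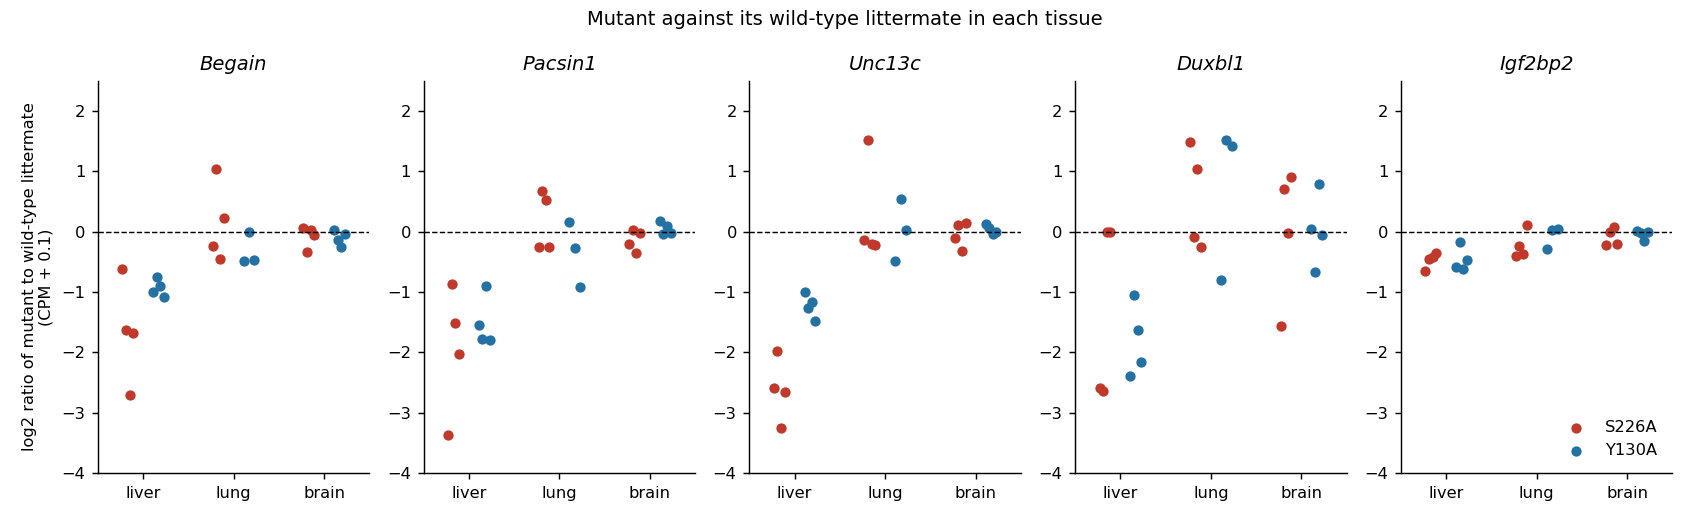
log2 ratio of each mutant to its WT littermate, computed on CPM + 0.1, in liver, lung and brain, with 1 point per litter, S226A in red and Y130A in blue. The liver points lie below 0 except for 2 ties of Duxbl1 at 0, and the lung and brain points of each gene lie on both sides of 0.

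In WT embryos the 5 genes had different tissue patterns. The WT livers helped to choose the genes, so the contrasts with liver are given without p values. Brain over liver was at a log2 fold change of 4.56 (SE 0.16) for Begain, 5.95 (SE 0.24) for Pacsin1 and 5.39 (SE 0.22) for Unc13c. These 3 lay inside the stringent limits, as did 29.2% of genes on the higher and 26.9% on the lower side. Igf2bp2 was at -0.81 (SE 0.07), less than the fold the stringent criteria need, where 41.8% of genes were lower in brain at an adjusted p below 0.05, and Duxbl1 was at 1.04 (SE 0.51).

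Lung and liver were closer to each other. No member lay inside the stringent limits, which held for 23.7% of genes on the higher and 18.9% on the lower side in lung. Lung over liver was at a log2 fold change of 0.84 (SE 0.07) for Igf2bp2 and 0.71 (SE 0.18) for Begain, where 42.3% of genes were higher in lung at an adjusted p below 0.05. It was -0.17 (SE 0.32) for Pacsin1, 0.37 (SE 0.25) for Unc13c and 0.55 (SE 0.53) for Duxbl1. Brain and lung, which the choice did not use, were tested. Compared with lung, Begain (3.85, adjusted p = 4.27e-24 by edgeR), Pacsin1 (6.12, adjusted p = 1.9e-24) and Unc13c (5.02, adjusted p = 2.69e-23) were called higher in brain, Duxbl1 did not pass (0.49, SE 0.50, adjusted p = 0.363) and Igf2bp2 (-1.66, SE 0.07, adjusted p = 3.79e-23) was called lower, where 23.1% of genes were called higher and 25.7% lower.

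Levels were compared between genes in CPM per kb of exon. In WT liver Igf2bp2 was at 4.95 ± 0.828 (SD, n = 8), Begain at 0.333 ± 0.115, Unc13c at 0.145 ± 0.0645, Pacsin1 at 0.0894 ± 0.0463 and Duxbl1 at 0.0553 ± 0.0451. Igf2bp2 stood apart, and each of the other neighbours in this order overlapped. Igf2bp2 thus ranked above 53.9% of the genes tested in WT liver and Begain, Unc13c, Pacsin1 and Duxbl1 above 22.4%, 16.9%, 14.3% and 11.9%. In WT lung Igf2bp2 was at 8.98 ± 1.60 and Begain at 0.539 ± 0.188 (n = 7), with Unc13c at 0.186 ± 0.0734, Duxbl1 at 0.0790 ± 0.0559 and Pacsin1 at 0.0774 ± 0.0250. In WT brain the order turned, with Begain at 7.83 ± 0.688, Unc13c at 6.09 ± 0.720 and Pacsin1 at 5.43 ± 0.423 above Igf2bp2 at 2.80 ± 0.164, and Duxbl1 last at 0.116 ± 0.0513. The ranges of Begain and Unc13c, and of Unc13c and Pacsin1, overlapped in brain.

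**Figure D4:**
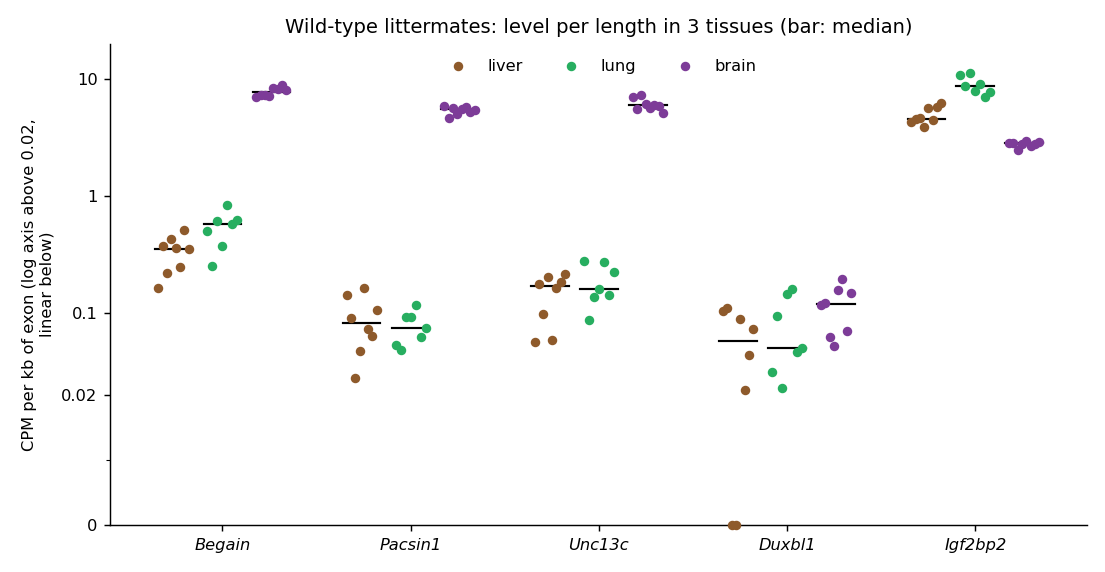
Level per length of the 5 genes in the WT libraries of 3 tissues, in CPM per kb of exon on an axis that is logarithmic above 0.02 and linear below, with 1 point per library and a bar at the median. The lowest brain value of Begain, Unc13c and Pacsin1 is 4.65 and their highest value in liver or lung 0.836, and Igf2bp2 is highest in lung.

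The WT libraries of the 2 sets of litters were compared as well, since they differ in depth. In lung, Begain was higher in the Y130A litters by 0.66 on the log2 scale (SE 0.24, adjusted p = 0.0413 by edgeR), short of the stringent limits, at an adjusted p that 9.24% of all genes reached in that direction. Igf2bp2 in lung was at -0.28 (SE 0.11, adjusted p = 0.0644). No member passed in brain, where the lowest adjusted p was 0.595 (Begain, 0.22, SE 0.18).

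The genes whose liver pattern was most like that of a member were found from Pearson's r over the 16 livers, on log2(CPM + 1) with the mean of each set of litters removed. The points share litters, genotypes and, for the members themselves, the choice on liver values, so r is a description. Begain was most like Tulp4 (r = 0.886), Unc13c (0.853) and Srek1 (0.846). Pacsin1 was most like Duxbl1 (0.888), Pcdhb15 (0.833) and Vwa5b2 (0.826), which were at means of 0.132, 0.124 and 0.0902 CPM over the livers, where r rests on few reads. Duxbl1 was in turn most like Pacsin1, Pcdhb15 (0.865) and Fam135b (0.859). Unc13c was most like Muc16 (0.947), Usp40 (0.907) and Pald1 (0.906), and Igf2bp2 most like Abl2 (0.900), Rrbp1 (0.891) and Camsap1 (0.878). Between members r ran from 0.423 (Unc13c and Duxbl1) to 0.888 (Pacsin1 and Duxbl1), with Igf2bp2 at 0.661 to 0.724 with each of the others. The difference between mutant and WT livers, on which the 5 were chosen, is part of these values. Duxbl1 had reads in only 6 of the 16 livers. No grouping of the 5 is therefore read from r.

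Begain, Pacsin1 and Unc13c are genes of neurons, so markers of neurons and of other cells that a liver piece can hold were set beside the liver values. All mutant livers lay below all WT livers for 5.18% of single genes in S226A and 1.19% in Y130A liver, a share for genes and not for sums. In Y130A liver 0.0% of all genes were called lower, so a count of 0 called lower there sets no list apart. The 8 neuron markers summed to 10.3 to 18.04 CPM in the S226A livers and 14.3 to 22.2 CPM in their WT littermates, and to 16.2 to 21.7 and 16.3 to 25.2 CPM in the Y130A litters, so both overlapped. Most of that sum was Map2, at means of 12.7 and 17.9 CPM in S226A and WT and 17.4 and 20.7 CPM in Y130A and WT livers, so the sum says little of the other markers. Stmn2 was at 0.217 against 0.660 CPM in the S226A litters and 0.778 against 0.560 CPM in the Y130A litters. Over the 8 markers 4 estimates were negative in S226A liver (median -0.24) and 3 in Y130A liver (median 0.36), with 0 called. Neurod6 and Slc17a7, which define cortical excitatory neurons, had no read in 3 of the 4 liver groups. The 7 hepatic stellate cell markers summed to 932 to 1109 CPM in S226A against 1152 to 1445 CPM in WT, and to 1070 to 1153 against 1210 to 1368 CPM in the Y130A litters, with no overlap in either set and 0 of 7 called. Reln and Col1a1 made up most of this sum, at means of 569 and 252 CPM in S226A against 703 and 325 CPM in WT liver, whereas Des (12.2 against 10.7 CPM) and Pdgfrb (33.9 against 31.7 CPM) were not lower, and in Y130A liver 4 of the 7 estimates were negative with a median of -0.06. The 12 macrophage markers summed to 290 to 415 CPM in S226A against 1085 to 1266 CPM in WT liver. Of these 12 markers 11 were called lower in S226A liver, where 0.847% of all genes were. In the Y130A litters they summed to 1195 to 1360 against 1295 to 1502 CPM with 0 called, where 0.0% of all genes were called lower. The 10 neutrophil markers were higher in S226A liver, at 8995 to 9671 against 3110 to 3709 CPM with 9 of 10 called, where 1.26% of all genes were called higher. They overlapped in the Y130A litters, at 4419 to 5016 against 3797 to 4704 CPM. The 8 B lineage markers were at 73.8 to 166 against 174 to 209 CPM in the S226A litters with 2 called lower, where 0.847% of all genes were. The 8 hepatocyte markers were at 149685 to 171858 against 176918 to 182102 CPM in the S226A litters with 0 called. Neither list overlapped in the S226A litters, and both overlapped in the Y130A litters. The sums of the 8 markers of adrenal medulla and autonomic neurons overlapped in the S226A litters (46.8 to 58.8 against 45.8 to 52.2 CPM). In Y130A liver the sums lay above WT (56.5 to 62.8 against 45.03 to 56.1 CPM). Gene by gene, 4 of the 8 estimates were negative in S226A liver (median -0.15) and 3 in Y130A liver (median 0). None was called, and Th and Dbh were at 0 reads in all 4 liver groups. Since Muc16 marks mesothelium, 8 mesothelial markers, Muc16 among them, were added after its r was seen. They summed to 36.5 to 48.9 against 51.6 to 74.6 CPM in the S226A litters and overlapped in the Y130A litters (55.9 to 67.3 against 55.1 to 80.3 CPM), and none had 0 reads in a group. Muc16 itself was at means of 9.69 against 16.9 CPM in the S226A litters, so the sum is not independent of its r. All 8 estimates were negative in S226A liver (median -0.50) and 4 in Y130A liver (median -0.04), with 0 called. The part of any of these cells in the liver values of the 5 genes was not tested.

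The labelled tissues carried their own markers. The 8 hepatocyte markers summed to at least 149685 CPM in every liver and at most 1282 CPM elsewhere, the 7 lung epithelial markers to at least 7202 CPM in every lung and at most 35.9 CPM elsewhere, and the 8 neuron markers to at least 5300.2 CPM in every brain and at most 43.5 CPM elsewhere. A WT liver (litter 2881, S226A set) and a Y130A liver (litter 2848) held transcripts of squamous epithelium, at 1193 and 775 CPM over 10 markers against at most 10.8 CPM in the other 14 livers. Without these 2 livers, a choice made after seeing the data, the log2 fold changes in S226A and Y130A liver were -1.67 and -0.97 for Begain, -2.33 and -2.38 for Pacsin1, -2.84 and -1.15 for Unc13c and -0.44 and -0.43 for Igf2bp2. By an adjusted p below 0.05 alone, Duxbl1 was then the single gene lower in both livers (0.00592%), in place of 3.

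Genes of the same pathways were not called by edgeR. Of 65 related genes tested in 5 lists, edgeR called 0 in each of the 6 comparisons of mutant and WT. Over all genes at most 0.847% were called lower and 1.26% higher, both in S226A liver, so 0 of 65 lies near these shares. An unadjusted p below 0.05 was reached by 14 in S226A lung, 1 in Y130A lung, 2 in S226A brain and 1 in Y130A brain, beside 16.2%, 2.92%, 2.27% and 2.22% of all genes. DESeq2 called 0 of the 65 in lung and brain. In S226A and Y130A liver 20 and 14 had an unadjusted p below 0.05, as had 24.7% and 9.22% of all genes, and DESeq2 called Amph, Rims1 and Lin28a in S226A and Amph in Y130A liver. Of all 16892 genes DESeq2 called 211 lower and 247 higher in S226A liver, and 19 lower and 41 higher in Y130A liver. Amph, which encodes amphiphysin, a partner of dynamin like Pacsin1, was on the opposite side from Pacsin1. Its log2 fold change was 2.51 (SE 0.74, adjusted p = 0.019 by edgeR) in S226A and 1.81 (SE 0.40, adjusted p = 0.030) in Y130A liver, short of the stringent criteria by p.

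The list of 18 genes of endocytosis, with Pacsin2 and Pacsin3, had a median log2 fold change of -0.06 in both livers, against -0.01 and 0 over all genes. Its members with the lowest p between mutant and WT in lung and brain were Ap2a1 and Dnm2 in S226A lung, at -0.30 (adjusted p = 0.139 by edgeR) and -0.15 (adjusted p = 0.174). The 16 genes of vesicle release had medians of -0.23 and -0.07 in S226A and Y130A liver. Among the relatives of Unc13c, Unc13b was at -0.58 (SE 0.09, adjusted p = 1.15e-05) and Unc13d at 0.53 (SE 0.13, adjusted p = 0.00501) in S226A liver, both under the fold limit, and Unc13a at 0.14 (SE 0.39, adjusted p = 0.900). The 18 postsynaptic scaffold genes had medians of -0.09 and -0.08. Among them Nlgn2, the neuroligin of inhibitory synapses, had the lowest p between mutant and WT in lung and brain, at -0.66 in S226A lung (SE 0.20, adjusted p = 0.0741 by edgeR). The 5 members had medians of -2.44 in S226A and -1.43 in Y130A liver, which their choice fixed.

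Of the 12 genes tested around Igf2bp2, Lin28a, the RNA-binding protein that blocks let-7, was at 2.29 in S226A lung (SE 0.66, adjusted p = 0.0585) and at 1.15 in S226A liver (SE 0.33, adjusted p = 0.0177). Hmga1, Igf1r and Arid3a were each at 0.50 to 0.51 in S226A liver, with adjusted p = 0.00365, 0.00397 and 0.000101 by edgeR, all under the fold limit and opposite in sign to Igf2bp2. The median of the 12 was 0.08 in S226A liver, with 3 negative, and -0.09 in Y130A liver, with 10 negative. Of 20 genes of Dux and the early embryo, 9 were in the count table and Zfp352 alone passed the filter, and it was not called in any of the 6 comparisons. In liver, lung and brain its log2 fold changes were 0.71, -0.45 and 0.48 with S226A, and 4.56, 3.26 and 2.82 with Y130A, with SEs of 1.33 to 2.20. In WT embryos 15 of 16 vesicle release genes and 13 of 18 postsynaptic genes were called higher in brain than in liver, and 9 of 12 genes around Igf2bp2 were called lower, with 0 higher, beside 29.2% of all genes called higher and 26.9% lower. The endocytosis list was mixed, with 7 of 18 called higher and 4 lower and a median of 0.05, whereas Pacsin1 itself was at 5.95.

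Genes beside the members on the chromosome were not called lower by edgeR. Of 48 genes tested within 500 kb of a member, edgeR called 0 lower in the 6 comparisons of mutant and WT, where at most 0.847% of all genes were called lower. It called 3 higher, all in S226A liver, where 1.26% of genes were called higher: Def6 near Pacsin1 (1.11, SE 0.17), Rab27a near Unc13c (1.10, SE 0.11) and Dgkg near Igf2bp2 (1.21, SE 0.17). DESeq2 called these 3 and Etv5 near Igf2bp2, which by edgeR was on the lower side at -0.99 (SE 0.13, adjusted p = 4.41e-07), next to the fold limit, so that the count of 0 lower depends on the tool. Unadjusted p values below 0.05 numbered 16 in S226A liver, 3 in Y130A liver, 10 in S226A lung, 1 in Y130A lung, 0 in S226A brain and 1 in Y130A brain, beside 24.7%, 9.22%, 16.2%, 2.92%, 2.27% and 2.22% of all genes.

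Daxx itself, which carries the point mutations, was transcribed in both mutants and WT littermates, which does not check the labels, since a changed codon leaves the count in place. The ratios between littermates ran from 0.686 to 1.26 in liver, 0.938 to 1.19 in lung and 0.876 to 1.08 in brain. Daxx was lower in the mutant in 4 of 8 litters in liver, 4 of 7 in lung and 6 of 8 in brain, where all 4 Y130A brains were lower, by ratios of 0.885 to 0.951.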

How the data were processed

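Total RNA of liver, lung and brain was sequenced, and the authors deposited raw read counts per gene. Per the labels and the study's methods, reads were checked with FastQC 0.11.5, trimmed with Trim Galore 0.6.5, and aligned to GRCm38 and counted with STAR 2.6.0b. The counts were tested here with edgeR 4.0.16 (quasi-likelihood, TMM, 1 coefficient per group, all 47 libraries in 1 fit) on 16892 genes that passed filterByExpr (minimum count 10, minimum total 15), with Benjamini-Hochberg adjustment over all of them. All 5 members passed. An SE is the log2 fold change over the square root of F. DESeq2 1.42.0, RLE factors, no filter, only the libraries compared, the litter as a block, each litter set alone, a looser call and leaving out each library were alternatives. The edgeR fit was tested on simulated data. Members and lists were chosen with earlier results of these data known; text names the 5 members, the 3 most correlated genes of each, up to 4 genes per list by adjusted p in lung and brain or, where called or nearly called, in liver, and neighbours within 500 kb. Unc13b, Unc13d, Amph, Hmga1, Igf1r and Arid3a were named after their values were seen. Of the genes that this rule picks, 1 is not reported here.

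Litter numbers in the titles pair mutants with WT littermates. Deviations from group means correlated in littermates (median r 0.213 over 23 pairs, 18 of them over 0.1) and not in other pairs (median -0.0614 over 69). No 2 replicates agreed within sampling noise (lowest chi-square per degree of freedom 4.09 over 69 pairs). The 47 libraries come from 17 embryos, most of which gave all 3 tissues. The WT lung of litter 2970 is from another embryo than the WT liver and brain of that litter. Within a tissue each library comes from a separate embryo, and p-values of mutant against WT measure the spread between embryos. The p-values of WT brain against WT lung come from a fit that takes the tissues of an embryo as independent. Exact permutation tests used log2(CPM + 0.1). Python 3.11.15 was used for summaries, with gene models of GENCODE M21 and promoters of RefSeq.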

Additional observations from a re-analysis of the deposited data

Results flagged for a closer look

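In 53 sets of 4 libraries of a member in 1 group, 3 held a library far from the other 3 by Dixon's ratio, where chance gives about 1 in 20. Begain was at 2.42 CPM in the S226A lung of litter 2881, above the other 3 (1.86 to 1.94 CPM). Pacsin1 was at 0.277 CPM (6 reads) in the S226A liver of the same litter, 2881, the only one of 4 with a read, and with the other 3 at 0 the ratio is at its maximum whatever the count. Igf2bp2 was at 18.2 CPM in the WT brain of litter 2970, below the other 3 (20.8 to 21.2 CPM). The S226A liver of litter 2881 also had the most reads of Unc13c (7) among the 4. No cause was tested.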

How the results depend on the processing

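In lung and brain, 0 members were called under each alternative run (DESeq2, RLE factors, no filter, only the libraries compared, the replicate block, leaving out each library, adjusted p below 0.05 alone), and with the litter as a replicate block Igf2bp2 in S226A lung was at -0.22 (SE 0.087, adjusted p = 0.156 by edgeR). With that block the count called in WT brain against lung stayed at 4. WT liver took part in the choice, so counts against liver are a description: the 0 members inside the stringent limits in lung against liver were 1 with only the S226A litters (Igf2bp2, 1.16) and 2 with an adjusted p below 0.05 alone. That looser limit also took the count between WT lungs of the 2 litter sets from 0 to 1. In S226A liver the median log2 fold change of the members, -2.44, was -1.11 with only the libraries compared, where 2 members passed the filter, so that 2 of 5 were negative, and -4.13 to -1.99 when each library was left out, the lowest without the S226A liver of litter 2881. In Y130A liver the median, -1.43, was -1.15 without the 2 livers with squamous transcripts (added after seeing the data) and -1.60 to -1.15 when each library was left out, and 4 of 5 were negative with only the libraries compared, where Duxbl1 was filtered. No estimate of a called result changed sign. Depth limits Pacsin1, Unc13c and Duxbl1 in liver, which rest on 0 to 55 reads per library.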
